A study of Acipenser ruthenus with 15 samples.

Results

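The vegetal pole (section E) was set against the animal pole (section A) of sterlet eggs (Acipenser ruthenus, a sturgeon). The comparison holds 6 of the 15 libraries of the series, chosen by their section label: 3 from section E and 3 from section A, one of each from eggs 10, 18 and 20. The labels call the material oocytes of stage 1 and give no treatment, genotype or age. In what is stated, the groups thus differ in section only. Each egg was embedded, cut with a cryostat and split into 5 segments, A to E, and the 9 libraries of the middle sections B, C and D serve here to show what lies between the poles. The labels do not name the females that laid the eggs. Model p-values measure only how differences between sections varied among these 3 eggs, over all 5 sections, with the level of each egg taken out.

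An egg stores RNA made by the mother, and the embryo lives on that store until its own genes are switched on. In the well-studied frog Xenopus, some of these RNAs are carried to the vegetal cortex during oogenesis, among them RNAs of the germ plasm, which marks the future germ cells, and RNAs for factors that specify endoderm and mesoderm. The animal side holds the oocyte nucleus and gives rise mainly to ectoderm. In sturgeon the whole egg cleaves, as in frogs, and the vegetal cells are heavily loaded with yolk. The deposited files give assembly IDs without gene names, and none of the IDs matched the table of annotated sterlet genes, so known vegetal, animal, oocyte and follicle cell genes could not be looked up and no sequence is shown. Transcripts are therefore described by size of difference, level and position, and 4 are named by ID.

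The libraries of both poles were of like depth. Total counts ran from 7269021 to 12903746 in section E and from 7192785 to 11090824 in section A, and from 4347026 to 14500611 over all 15 libraries. In section E 89.4 ± 2.66% of the 42878 listed transcripts had a count, and in section A 89.9 ± 1.82% (SD, n = 3 each). Levels are counts per 1000000 (CPM) scaled with TMM, which brings libraries to a common size on the premise that most transcripts do not differ, so a level is relative to the rest of its library and not an amount per section. A lower level of a transcript in the cytoplasm and a smaller share of its cytoplasm in the segment cannot be told apart.

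The strongest difference at a high level was that of trinitytrinLocDN54716c0g1t2. It stood at 318, 125 and 290 CPM in section E of eggs 10, 18 and 20, against 0.0871, 0.837 and 0.18 CPM in section A of the same eggs. Every vegetal library was far above every animal one. In B it stood at 0.379, 0.661 and 1.41 CPM, in C at 15.3, 8.34 and 15.3 CPM and in D at 52.5, 40.4 and 72.4 CPM, in the same egg order. The level was thus low through A and B and higher in each section after that, with no flattening before the pole. The mean in E was 664 times that in A, from 9 counts in A against 7164 in E. The log2 change fitted by the model, which is not the log of that ratio of means, was 9.61 ± 0.35 SE. Its adjusted p was 1.39e-12 (edgeR's quasi-likelihood test with Benjamini-Hochberg adjustment). Of the 9 counts in A, 6 were in egg 18, and the log2 change was 10.92 without that library and 11.03 without egg 18. It was 9.02 without section A of egg 10, 8.89 without egg 10 and 9.02 with the deposited scaling. The transcript was named because it had the largest change among transcripts with at least 100 CPM in the higher pole.

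Its counterpart at the animal pole was trinitytrinLocDN53171c2g1t1. It stood at 1.89, 2.2 and 6.81 CPM in section E of eggs 10, 18 and 20, against 169, 402 and 395 CPM in section A. Here too the poles did not overlap, and the mean in A was 88.6 times that in E. The fitted log2 change was -6.36 ± 0.34 SE (adjusted p = 1.47e-10, edgeR with Benjamini-Hochberg adjustment). Most of the drop came early: section B held 41.4, 48.2 and 49.1 CPM, section C 4.87, 3.13 and 10.9 CPM, and section D 3.36, 1.66 and 2.14 CPM. Section E of egg 20 was the highest of the vegetal libraries, and the log2 change was -7.07 without it and -7.06 without egg 20. It was -6.98 with the spike-in and -6.95 with the deposited scaling. Smaller changes came from leaving out egg 18 (-5.951), its section A (-6.06) or its section E (-6.135).

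**Figure D1:**
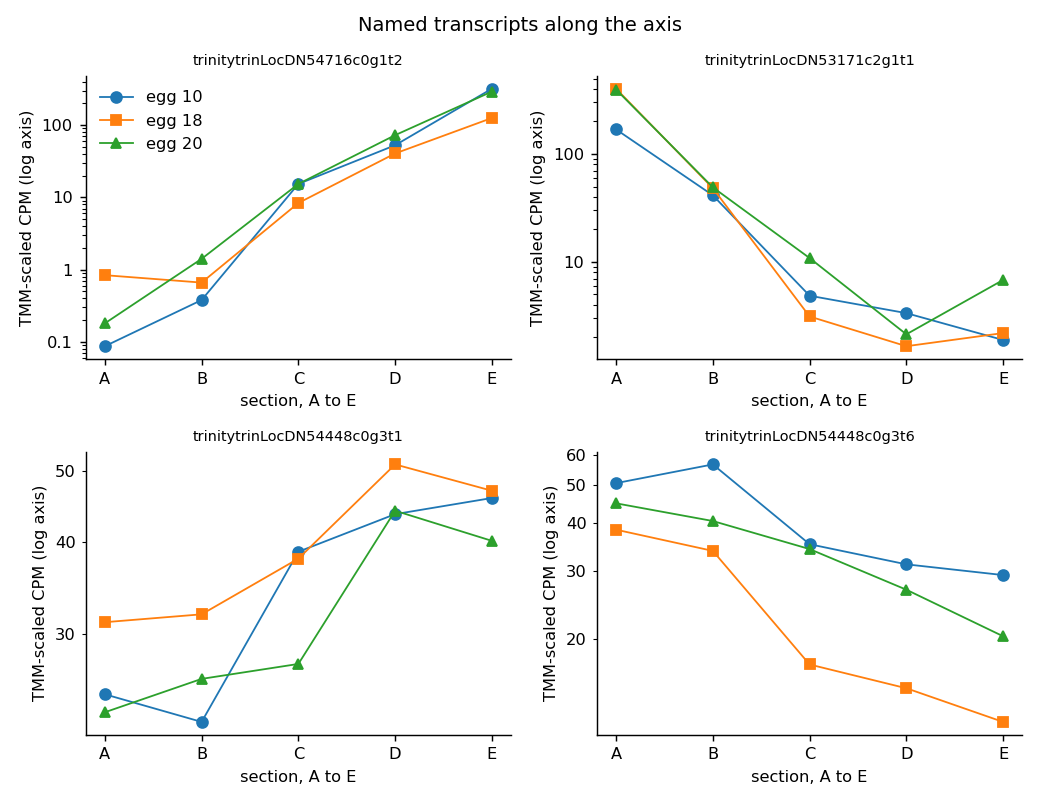
Level of the 4 named transcripts in TMM-scaled CPM (log axis) in sections A to E; each line is 1 egg. The upper pair differs between poles by 664-fold (left) and 88.6-fold (right) in the means; the lower pair are transcripts of 1 assembled gene that run in opposite directions.

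Across the transcriptome, 10222 of 29102 tested transcripts differed between E and A, 35.1% of those tested (quasi-likelihood test of edgeR, adjusted p under 0.05 after Benjamini and Hochberg). With TMM the directions were even, 5090 higher in E (17.5%) and 5132 higher in A (17.6%). Counted on TMM-scaled levels without a test, all 3 libraries of E lay above all 3 of A for 5114 tested transcripts (17.6%) and below them for 5275 (18.1%). This balance too is that of TMM. Of the transcripts called, 4177 of those higher in E and 4134 of those higher in A had poles that did not overlap. Without egg 18, 3305 transcripts were called higher in A and 3608 higher in E.

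Most differences were small. Among transcripts called higher in E the median log2 change was 0.94, and among those higher in A it was -0.85. Changes under 2-fold made up 2694 of the transcripts higher in E and 3037 of those higher in A. The question whether a change is larger than 2-fold was put to edgeR's glmTreat, which tests against that size rather than against 0. With TMM it called 1446 transcripts more than 2-fold higher in E (4.97% of those tested) and 806 more than 2-fold higher in A (2.77%). Which direction had more calls rested on the scaling. The numbers were 935 in E and 1618 in A with the spike-in row as scaling, and 940 and 2610 with the deposited scaling.

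The large differences leaned to the vegetal side, and more so the larger they were. At least 8-fold changes numbered 609 toward E and 200 toward A, those of at least 32-fold for 180 and 31, and of at least 64-fold for 110 and 16. The ratio of the 2 numbers was 1.14 at 2-fold, 2.17 at 4-fold (1156 and 533 transcripts, 3.97% and 1.83% of those tested), 3.04 at 8-fold and 6.88 at 64-fold. A fitted change against a pole with 0 counts depends on the model's prior count. With such transcripts set to the bound that 3 counts per library give, 131 and 19 were left past 32-fold and 62 and 4 past 64-fold. The lean at 4-fold rests on the scaling: with the spike-in row as scaling the ratio was 0.784 and with the deposited scaling 0.636, so that more transcripts were past 4-fold in A. At 32-fold the ratio was 2.88 with the spike-in and 2.66 with the deposited scaling, and at 64-fold 3.88 and 3.5. In fitted changes of that size the lean to E was thus in place under all 4 scalings. The bound for 0 counts was set with TMM only, so the ratios under the other scalings rest on fitted changes.

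The share of calls higher in E moved with the scaling as well. TMM gave 49.8%, total counts gave 39.6%, the spike-in gave 15.8% and the deposited scaling gave 11.9%, while the median log2 change of all tested transcripts was -0.02, -0.11, -0.53 and -0.61. A scaling moves every transcript of a library by the same amount, so transcripts with changes near 0 switch sides. Of transcripts called under both TMM and the deposited scaling, 359 of 7655 had opposite directions, and 0 of these were at least 2-fold with TMM.

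**Figure D2:**
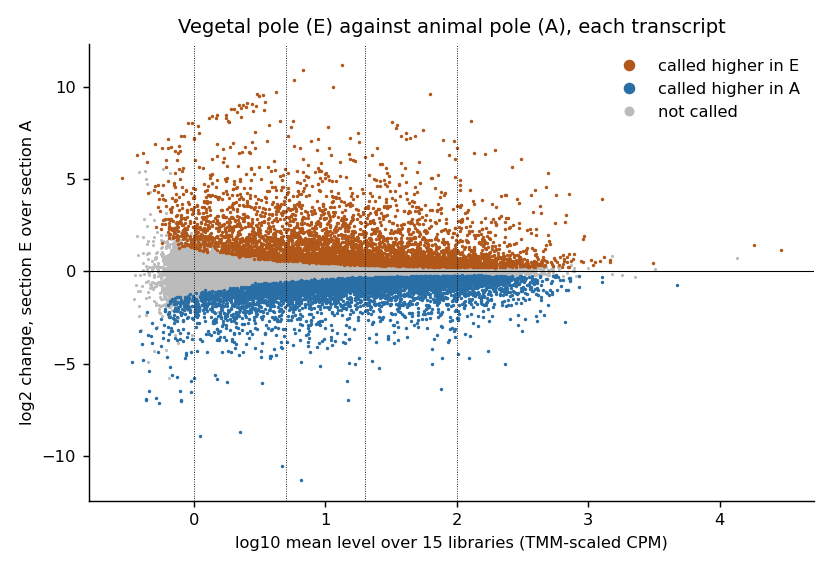
Log2 change of section E over section A against the log10 of the mean level over 15 libraries, 1 point per tested transcript; brown points were called higher in E, blue points higher in A, grey points were not called, and dotted lines bound the abundance classes. The upper cloud reaches further from 0 than the lower one, with 110 transcripts at least 64-fold higher in E against 16 higher in A.

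Strongly polar transcripts took a small share of the RNA. Fitted changes of at least 16-fold were called for 1.37% of tested transcripts. The 327 of them toward E had a median level of 4.8 CPM over all 15 libraries, against 7.84 CPM for all tested transcripts, and made up 1.96 ± 0.0559% of the counts in section E, against 0.0687 ± 0.00166% in section A (SD, n = 3 each). The 72 with changes of that size toward A had a median of 2.3 CPM and made up 0.0141 ± 0.00523% of the counts in section E, against 0.413 ± 0.0951% in section A. The number toward A was 109 to 118 without egg 10, without egg 20 or without section E of either, 132 with the spike-in, 134 with the deposited scaling and 145 with no filter on low counts. Transcripts with smaller changes held more of the counts at both poles. The 1123 transcripts higher in E by less than 1.41-fold held 11.7 ± 0.825% of the counts in E and 9.65 ± 0.222% in A. The 1240 higher in E by 2 to 4-fold held 12.1 ± 0.973% in E and 5.11 ± 0.355% in A. The 1562 higher in A by 2 to 4-fold held 3.14 ± 0.465% in E and 8.27 ± 0.346% in A.

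A few transcripts were detected at 1 pole only. Of 61 tested transcripts with 0 counts in all 3 libraries of section A, 53 were called higher in E, with 15 to 900 counts there and a median level of 4.07 CPM. Their levels in E were at least 1.27-fold to at least 101-fold above the level that 3 counts per library would give in A, with a median bound of 12.8-fold. In the other direction, 15 of 19 transcripts with 0 counts in section E were called higher in A, with bounds from 1.26-fold to 95.2-fold and a median of 4.82-fold. These bounds cover counting error only. A transcript with 0 counts at a pole passed the filter on low counts only through the sections where it was high. The filter thus favoured a call, and the shares of 61 and 19 that were called are no separate result. The vegetal group was not confined to the pole: 41 of the 53 had a count in B, 52 in C and 53 in D, at medians of 0.138, 1.03 and 2.04 CPM. Of the 15 animal transcripts, 13 had a count in B, 13 in C and 10 in D.

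Abundant transcripts were called more often than scarce ones. Of transcripts with a mean of at least 100 CPM, 60.5% were called, 731 higher in E and 721 higher in A. The share was 49.3% at 20 to 100 CPM, 37.4% at 5 to 20 CPM, 21.5% at 1 to 5 CPM and 13.8% under 1 CPM (312 transcripts, 193 without egg 10), set against 35.1% of all tested. From 1 CPM upward the 2 directions were close in number, with 1694 higher in E and 1770 in A at 20 to 100 CPM, 1468 and 1463 at 5 to 20 CPM, and 1021 and 1042 at 1 to 5 CPM. Under 1 CPM 176 were higher in E and 136 in A. The balance is that of TMM scaling, like the balance over all transcripts.

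Among transcripts that were called, the size of the difference ran the other way. The median log2 change of transcripts called higher in E was 0.52 at 100 CPM and above, 0.61 at 20 to 100 CPM, 0.98 at 5 to 20 CPM, 1.72 at 1 to 5 CPM and 2.75 under 1 CPM, or 2.49 with transcripts at 0 counts set to their bound. For transcripts called higher in A these medians were -0.59, -0.63, -0.84, -1.33 and -2.32, or -2.19 at the bound. The precision changed in step: the median standard error of the log2 change was 0.0952 at 100 CPM and above and 0.614 under 1 CPM, so a scarce transcript had to differ more to be called. The share of tested transcripts called with a fitted change of at least 4-fold, which also needs a call, was 4.92% at 100 CPM and above, 4.47% at 20 to 100 CPM, 5.31% at 5 to 20 CPM, 6.43% at 1 to 5 CPM and 9.94% under 1 CPM, against 5.8% of all tested. The share that glmTreat called beyond 2-fold ran in the opposite direction, at 10.2, 8.24, 8.75, 6.46 and 5.5% in the same order of classes. The filter on low counts also shaped the lowest class. Transcripts with a mean under 1 CPM passed it through the libraries where they were highest, which favours uneven profiles there. Which abundance class differed more thus depended on the measure.

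Among abundant transcripts the 4-fold differences again numbered more on the vegetal side with TMM, 85 against 33 at 100 CPM and above and 218 against 96 at 20 to 100 CPM. Classes built from the levels in sections B, C and D alone gave 77 against 17 and 218 against 85. The 85 and the 33 had their mean raised by the pole in which they were high. Classes from the middle sections leave out the poles but are not neutral to direction. With TMM both directions stood nearer in C and D to their level in E, which lowers the class of transcripts high in A. Under 1 CPM these classes held 159 against 131, where the classes over all libraries held 137 against 87. The middle sections also share the fit and its estimate of the spread.

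**Figure D3:**
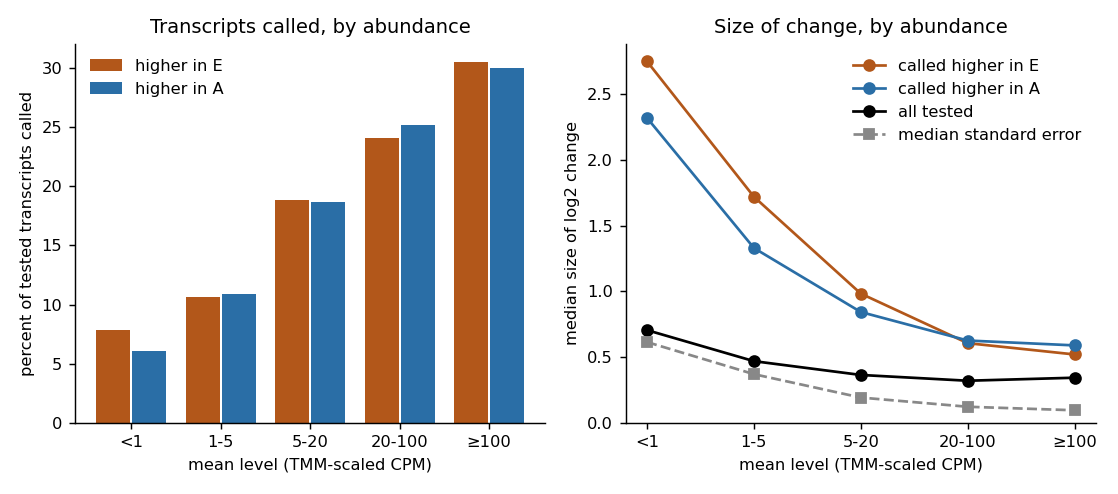
Left, percent of tested transcripts called higher in E (brown) or higher in A (blue) in 5 classes of mean TMM-scaled CPM. Right, median size of the log2 change of transcripts called in each direction, of all tested transcripts and the median standard error; calls rise from 13.8% to 60.5% with abundance while sizes fall.

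The vegetal pole was also the less even library. In section E the 10 most abundant transcripts took 11.1, 10.2 and 9.12% of the counts in eggs 10, 18 and 20, against 5.4, 6.34 and 6.4% in section A. The number of transcripts that made up 50% of the counts was 1626, 1580 and 1692 in E, against 1863, 1830 and 1829 in A. The poles did not overlap in either measure, and egg by egg the difference went the same way in 3 of 3 eggs. The exact paired permutation test gave p = 0.25, two-sided, the smallest that 3 pairs allow. Section D was close to E in the share of the top 10, at 9.77 ± 3.07% against 10.1 ± 0.991% (SD, n = 3 each). Section D of egg 18, at 13.2%, was the only library above all 3 of section E in this share. Its 1523 transcripts for 50% of the counts were also fewer than in any library of E.

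Between the poles the change was not spread evenly. It was followed in 2 sets: 2396 transcripts called and at least 2-fold higher in E (8.23% of those tested), the vegetal set, and 2095 called and at least 2-fold higher in A (7.2%), the animal set. Both were chosen on the pole libraries, so their difference between E and A is given by the choice, while the levels in B, C and D are not. The median log2 level of the vegetal set, as log2 of CPM plus 0.5, stood at 1.47, 1.45 and 1.60 in section A of eggs 10, 18 and 20, at 1.78, 1.83 and 1.85 in B, at 2.94, 2.69 and 2.70 in C, at 3.33, 3.20 and 3.28 in D and at 3.64, 3.45 and 3.56 in E. The vegetal set thus stayed low through B and was higher from C on in every egg. The animal set stood at 3.32, 3.36 and 3.52 in A, 2.98, 2.71 and 2.97 in B, 2.51, 2.03 and 2.60 in C, 2.34, 1.88 and 2.10 in D and 2.02, 1.58 and 1.98 in E. It was lower in each section than in the one before, in all 3 eggs.

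As a share of its own difference between A and E, the vegetal set had covered 15.4 ± 3.26% in B, 62.1 ± 5.87% in C and 86.3 ± 1.09% in D (SD, n = 3). The animal set had covered 33.0 ± 5.93% in B, 65.9 ± 7.92% in C and 83.7 ± 8.7% in D. These shares depend on the scaling. With the deposited scaling and the sets chosen anew, the vegetal set had covered 31% in B and 87.4% in C, and the animal set -1.6% in B and 32.9% in C. Scaled by the spike-in, the vegetal set reached 25.6% and 79.8%, and the animal set -1.4% and 50.5%.

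For fixed sets, the distance between the 2 sets within a library is all but free of scaling, since a scaling moves both alike. Vegetal minus animal, it was 1.62, 1.87 and 1.58 log2 units in section E of eggs 10, 18 and 20, against -1.85, -1.91 and -1.93 in section A. The step from B to C held 47.1, 40.8 and 34.9% of this change, more than any other step in each egg. The step from A to B held 23.1 ± 4.25%, that from C to D 21.3 ± 8.21% and that from D to E 14.6 ± 3.49% (SD, n = 3). With the sets kept as they were, section B was at 23.1% under TMM, 23% under total counts, 23.1% with the spike-in and 23% with the deposited scaling. In C it was 64%, 64.2%, 65.1% and 65.2%. That these values are alike is given by the measure and is no separate result. Sets chosen anew gave 21.3% in B under total counts, 17.9% with the spike-in and 17.6% with the deposited scaling. In C they gave 63%, 64.3% and 65%. The sets crossed between B and C: the vegetal set was below the animal set in B and above it in C, in 3 of 3 eggs, with TMM.

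The sets were also chosen a second time without an egg and measured in the egg left out. The share of the change reached was then 22.3 ± 5.59% in B, 63.9 ± 3.15% in C and 87.2 ± 3.31% in D, and the step from B to C held 47, 38.9 and 38.9% in eggs 10, 18 and 20. Each share was within 1 SD of the share from all eggs. The crossing by section C was not seen in every egg with these sets: vegetal minus animal in C was 0.013, 0.48 and -0.040 log2 units in eggs 10, 18 and 20.

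**Figure D4:**
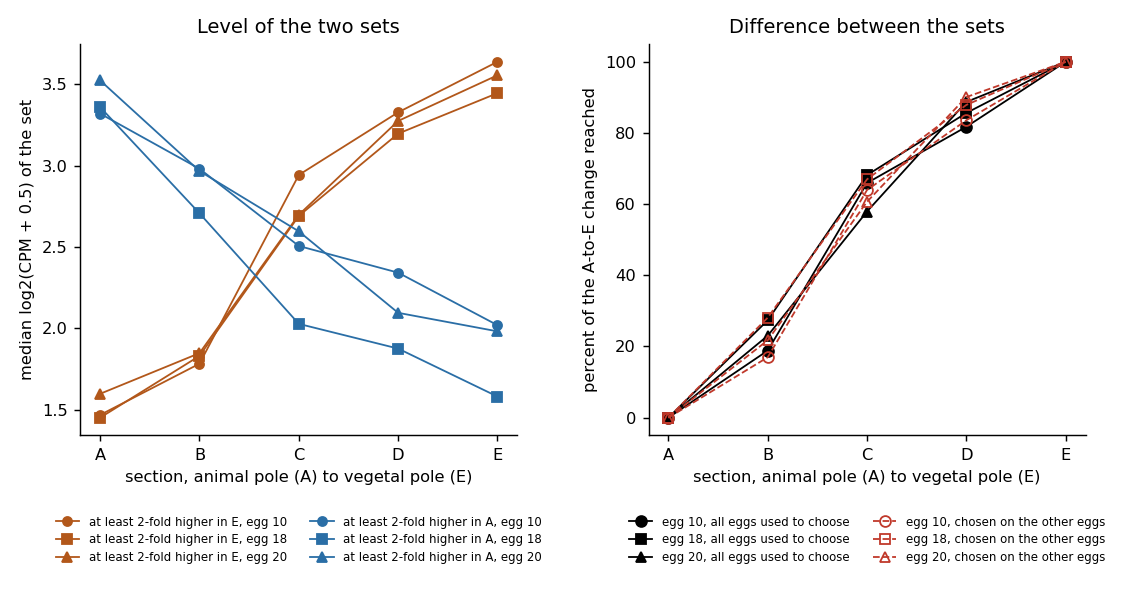
Left, median log2(CPM + 0.5) in sections A to E of the vegetal set (2396 transcripts, brown) and the animal set (2095, blue), 1 line per egg. Right, distance between the sets as a percent of its change between A and E, for sets chosen on all eggs (black) and on the other eggs (red, dashed). In the right panel all lines are steepest between B and C.

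Single transcripts showed the same steps with a wide scatter. In the vegetal set 1379 of 2396 (57.6%) had their largest step between B and C, 581 between C and D, 250 between D and E and 186 between A and B. In the animal set 770 of 2095 (36.8%) had it between A and B, 700 between B and C, 371 between C and D and 254 between D and E. With TMM, larger differences were more concentrated. At 4-fold and above, 833 of 1156 vegetal transcripts (72.1%) stepped between B and C and 288 of 533 animal ones (54%) between A and B. The shares at 4-fold and above were not taken under other scalings. For 551 vegetal transcripts the step between B and C was the largest in each of the 3 eggs, and for 259 animal ones that between A and B. With the sets of at least 2-fold chosen anew under each scaling, and so not of the same transcripts, the vegetal step still led. It did so for 56.8% with total counts, 52.4% with the spike-in and 64.3% with the deposited scaling. The animal step did not hold its share, at 26.8%, 5.5% and 5.3%.

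Egg 10 weighed on these shares, which were 48.8% for the vegetal step and 43.2% for the animal step without it. In left-out eggs, the step from B to C was the largest for 53.6 ± 7.59% of the vegetal transcripts (SD, n = 3), and the step from A to B for 32.8 ± 8.15% of the animal ones. The step from B to C was the largest for 32.3 ± 3.92% of the animal ones, and in left-out egg 10 it led, with 33.4% against 24% for the step from A to B. The median transcript whose largest step was the one from B to C had 54.7% of its difference in it in the vegetal set, so even there the rest of the change lay elsewhere.

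**Figure D5:**
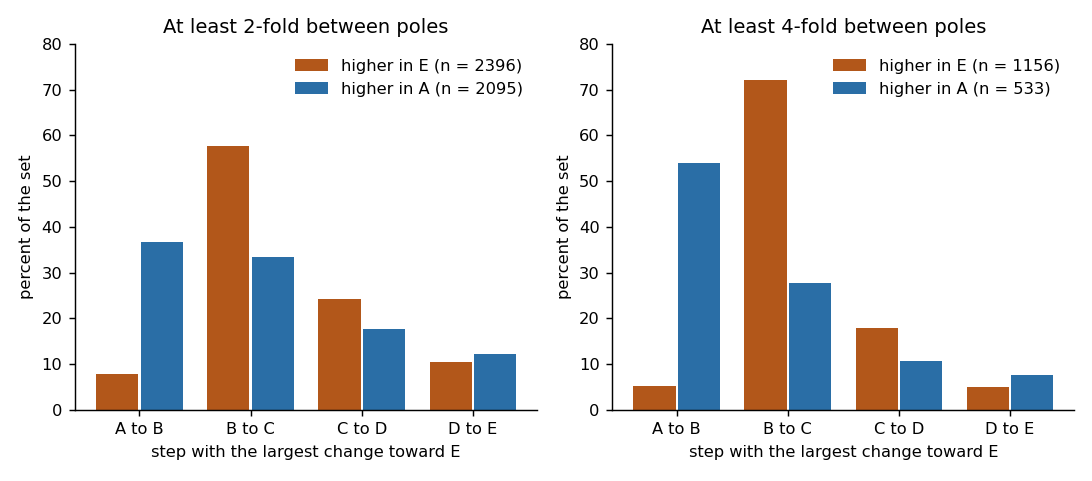
Percent of transcripts whose largest step toward the level in E lay between each pair of adjacent sections, for transcripts at least 2-fold (left) and at least 4-fold (right) different between poles; brown bars are transcripts higher in E and blue bars transcripts higher in A. Vegetal transcripts pile up at the step from B to C, 57.6% and 72.1%, with TMM scaling.

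Unbroken gradients were common in the mean, and fewer were unbroken in all 3 eggs at once. All 4 steps went the same way in the means of 1317 vegetal transcripts (55%) and 1042 animal ones (49.7%), and in each of the 3 eggs for 329 and 132. At 16-fold and above the share in the means was 72.8% of 327 vegetal and 45.8% of 72 animal transcripts. In 131 transcripts of the vegetal set a middle section was above section E in all 3 eggs, and in 46 of the animal set a middle section was above section A. These counts are with TMM.

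The share of its change that a transcript had made by the centre also differed with its size. Section C lay nearer to the higher pole for 1408 of 2396 vegetal transcripts (58.8%) and for 615 of 2095 animal ones (29.4%), on the log2 scale. At 16-fold and above the numbers were 261 of 327 (79.8%) and 10 of 72 (13.9%). At that size the level in C was thus mostly on the side of section E for both directions, with TMM.

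With TMM, sections D and B, which share no library with the poles but come from the same eggs, told the 2 directions apart as well. Of transcripts called higher in E, 3203 were called higher in D than in B (62.9%, against 12.3% of all tested) and 3 higher in B. Of those called higher in A, 2451 were called higher in B (47.8%, against 9.62%) and 2 higher in D (adjusted p under 0.05, edgeR). This too moved with the scaling, as the median log2 change of D over B of all tested transcripts was -0.62 with the deposited scaling and -0.97 with the spike-in. Of the same 5090 and 5132 transcripts, 1421 were then called higher in D and 4918 higher in B with the deposited scaling, and 949 and 5033 with the spike-in. The shares of all tested transcripts called under these scalings are not given here. Of the 5090, 49.5% lay higher in D than in B with the deposited scaling and 34.8% with the spike-in, against 97.9% with TMM. Of the 5132, 99.7% and 99.9% lay higher in B, against 96.6% with TMM.

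The direction was shared by the eggs and its size varied. Transcripts chosen without an egg as at least 2-fold higher in E had the same direction in the left-out egg in 96.3 to 96.7% of cases, and those at least 2-fold higher in A in 93.7 to 98.3%. Egg 10 had the shallowest animal difference, with a median log2 change of the animal set of -1.14, against -1.61 in egg 18 and -1.34 in egg 20. For the vegetal set egg 10 had the largest, 1.78, against 1.64 and 1.61. These sets were chosen on all eggs. With sets chosen without the egg measured, the animal medians were -0.94, -1.70 and -1.28 in left-out eggs 10, 18 and 20. The vegetal medians were 1.71, 1.65 and 1.62. Of the animal transcripts 46.1, 83.3 and 67.8% were at least 2-fold different in the left-out egg, and of the vegetal ones 75.4, 78.3 and 76.9%. Across transcripts, the log2 difference between poles correlated between eggs with Pearson's r of 0.905 to 0.971 at 100 CPM and above and of 0.389 to 0.423 under 1 CPM. Transcripts are not independent replicates, and the counting error of scarce ones lowers r.

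The 2 poles could also hold different transcripts of a gene. Of 28468 assembled genes tested, 601 had at least 2 tested transcripts, and in 90 of these (15%) the transcripts changed unequally between E and A (edgeR's diffSpliceDGE, gene-level F test, Benjamini-Hochberg adjusted). In 12 genes one transcript was called higher in E and another higher in A. All 12 were among the 90, which is close to given, as both rest on the same fit and contrast. In 24 of the 90 the most abundant transcript at the vegetal pole was not the most abundant one at the animal pole. In 10 of these that held in 3 of 3 eggs. The share of such genes among all 601 is not given, so the 24 cannot be read as an excess. The number of genes with unequal change was 40 without the egg as a block, and 54, 62 and 46 without egg 10, 18 and 20. How reads shared by transcripts of a gene were assigned is not stated in the labels, and closely alike transcripts are uncertain for that reason.

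The clearest such gene held trinitytrinLocDN54448c0g3t1 and trinitytrinLocDN54448c0g3t6. The transcript ending in t1 stood at 45.9, 47 and 40.2 CPM in section E of eggs 10, 18 and 20, against 24.8, 31.1 and 23.4 CPM in section A. The one ending in t6 stood at 29.2, 12.2 and 20.3 CPM in E, against 50.7, 38.4 and 44.9 CPM in A. Neither overlapped between poles. With TMM the sum of both was 75.2, 59.2 and 60.4 CPM in E and 75.5, 69.5 and 68.4 CPM in A, lower in E in each egg. The share of trinitytrinLocDN54448c0g3t1 in it was 61.1, 79.5 and 66.4% in E and 32.9, 44.8 and 34.3% in A. The log2 changes were 0.76 ± 0.12 and -1.17 ± 0.15 (SE; adjusted p = 9.08e-05 and 1.11e-05, edgeR with Benjamini-Hochberg adjustment). The first call ended with the spike-in (adjusted p = 0.455, edgeR) and the deposited scaling (0.246), which leave the shares within the gene as they are. The log2 changes were then 0.23 and -1.71 with the spike-in and 0.16 and -1.76 with the deposited scaling. Both scalings thus put the sum in E further below that in A.

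The form of the ID went with the size of the difference. IDs carry GG or DN, which the Trinity assembler gives to genome-guided and de novo assemblies. GG transcripts were 34.8% of those tested, 46.9% of the 1156 at least 4-fold higher in E and 47.5% of the 533 at least 4-fold higher in A. Within an abundance class the excess on the vegetal side was in place: at 100 CPM and above 7.06% of GG and 2.99% of DN transcripts were at least 4-fold higher in E, and at 5 to 20 CPM 5.25% and 3.16%. Under 1 CPM the shares were 6.56% and 5.71%. On the animal side GG and DN shares were 1.53% and 1.35% at 100 CPM and above, 1.48% and 1.34% at 20 to 100 CPM, 1.84% and 1.02% at 5 to 20 CPM, 2.92% and 1.6% at 1 to 5 CPM, and 4.41% and 3.44% under 1 CPM. No test was run on these shares.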

How the data were processed

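RNA of 15 egg segments was measured by sequencing. Per the labels' protocols, total RNA from TRIzol and a lithium chloride precipitation went through Ribo-Zero removal of ribosomal RNA, and SureSelect libraries kept the strand. The authors deposited raw counts per assembled transcript and a normalized signal for each library. The deposited signal equals the counts divided by 1 number per library, of unstated origin. Tools listed, per the submitters' processing notes, are DESeq2, kallisto, STAR 2.5.2b and Trimmomatic, with no roles or genome build.

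Counts were tested with edgeR 4.0.16 in R 4.3.3. The spike-in row, 0.0115 to 0.0235% of the counts, was left out. The filterByExpr function kept 29102 of 42878 transcripts, and libraries were scaled with TMM. The quasi-likelihood model had section and egg as additive terms over all 15 libraries (8 residual degrees of freedom, common biological coefficient of variation 0.123), and p-values were Benjamini-Hochberg adjusted over all tested transcripts with a threshold of 0.05. Standard errors are the log2 change over the root of the F statistic. Sections are regions of the same egg, and deviations from the section means correlated at 0.342 to 0.585 between E and A of an egg, so the egg was a block. No 2 libraries of a section agreed within sampling noise (chi-square per degree of freedom 4.79 to 27.5).

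The named transcripts are, per direction, the largest change with at least 100 CPM in the higher pole, and the pair of opposite transcripts of 1 assembled gene with the largest difference, each with at least 5 CPM on average, all with the same direction in 3 of 3 eggs. Members, sets and rules were chosen with earlier results of these data known. Scripts were tested on simulated data. Alternatives comprised other scalings (DESeq2 1.42.0 size factors, total counts, the spike-in, the deposited scaling), DESeq2's test, low-count filters, a fit without the egg, sections A and E alone, sums per assembled gene, a pseudocount of 2 in place of 0.5 CPM and leaving out eggs and libraries. Bounds against a pole with 0 counts cover counting error only, and no molecular identifiers are named in the labels. SDs include the spread between eggs. Standard errors include how differences between sections varied among eggs, with the level of each egg taken out. Gene names, sequences and positions in the genome were not analysed here.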

Additional observations from a re-analysis of the deposited data

Results flagged for a closer look

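A pair of measures outside the comparison differed between the poles. The spike-in row, with 693 to 3407 counts a library against the limit of 3 that a count of 0 allows, held 187, 247 and 167 TMM-scaled CPM in section E of eggs 10, 18 and 20, against 135, 116 and 165 CPM in section A, 1.45 times as high in the mean. The poles did not overlap, though E and A of egg 20 lay close together. Section D, at 229, 257 and 211 CPM, was above section E in each of the eggs. The number by which the deposited signal was divided, relative to the TMM size of the library, was 1.40, 1.39 and 1.40 in E and 0.92, 0.928 and 0.932 in A, 1.51 times as high in E. Eggs of a pole hardly differed in it. Scaling by either lowers all transcripts in E against A. The share of calls higher in E was then 15.8% with the spike-in and 11.9% with the deposited scaling, against 49.8% with TMM, and which scaling is nearest to the amounts in the egg was not tested.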

How the results depend on the processing

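The number of transcripts called between E and A was 10222 and stayed within 1.5 times of that with DESeq2 size factors, DESeq2's own test, total counts, both filters on low counts, the robust variance, sections A and E alone and sums per assembled gene. With the deposited scaling 18145 were called, 2164 toward E and 15981 toward A. Past 4-fold in A were then 1257, beyond 2-fold by glmTreat 940 higher in E and 2610 in A, and under 1 CPM 563 were called. With the sets chosen anew under each scaling, the vegetal set had here covered 31, 87.4 and 98.6% of its change in B, C and D. The animal set had covered -1.6, 32.9 and 70.8%, and the distance between sets 17.6% in B. The largest step was that from A to B for 5.3% of the animal set. D versus B gave 1421 and 4918 of the TMM sets. With the spike-in 1955 were higher in E and 10381 in A, at least 4-fold higher in A were 1109, and beyond 2-fold 935 and 1618. The vegetal set had covered 25.6, 79.8 and 74.4%, the animal set -1.4, 50.5 and 106%, and the distance 17.9% in B. The A to B step led for 5.5% of the animal set, and D versus B gave 949 and 5033. With total counts the animal set had covered 26.2% in B, the vegetal set 87.4% in D, and the A to B step led for 26.8%. A scaling shifts a whole library alike.

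Without the egg as a replicate block, 5925 transcripts were called, 3171 higher in E and 2754 in A, with 509 beyond 2-fold in A and 40 genes of unequal usage. Sets taken from glmTreat gave 28.2, 70 and 91.1% for the distance in B, C and D, 41, 74.3 and 93.5% for the animal set and 89.4% for the vegetal set in D. A pseudocount of 2 CPM gave 84.7% for the vegetal set in D. The cause of these moves was not tested.

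Leaving out an egg or a pole library gave 6913 to 10514 calls, 3592 to 5179 toward E, 3305 to 5335 toward A, and past 4-fold 1095 to 1266 in E and 469 to 663 in A. Leaving out an egg gave 1226 to 1288 and 562 to 895 beyond 2-fold, 193 to 256 calls under 1 CPM, 1081 to 1434 at 100 CPM and above and 46 to 62 genes of unequal usage. The B to C step led for 48.8 to 60.3% of the vegetal set and the A to B step for 33.1 to 43.2% of the animal set. Named transcripts kept direction and call in 74 values and lost the call in 2. The exceptions were trinitytrinLocDN54448c0g3t1 with the spike-in and the deposited scaling, and none reversed. The median standard error was 0.614 on the log2 scale under 1 CPM and 0.0952 at 100 CPM and above.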
